A study of Mus musculus with 8 samples.

Results

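METTL21A, METTL21C, METTL21E and VCPKMT are closely related enzymes that add methyl groups to lysines of other proteins, and VCP is a substrate of this family. The 5 genes (Mettl21a, Mettl21c, Mettl21e, Vcpkmt and Vcp) were taken by symbol from a table of 53819 gene symbols, and each was found once. Mettl21c was known beforehand as one of the largest falls between the groups compared here. The tumor-control values of the 5 genes are therefore descriptions, given without p-values.

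The table came from the quadriceps muscle of wild type C57BL/6J mice that entered the study at 8 weeks of age. The tumor mice (n = 4) carried a graft of B0092, a head and neck squamous cell carcinoma line, started with 500000 cells under the skin of the nape. The control mice (n = 4) got only phosphate-buffered saline. Muscle was taken on day 36, when weight loss in the tumor-bearing mice was about 10%, and each of the 8 libraries came from a mouse of its own. The tumor was 1 cell line implanted away from the muscle, so the groups model that line and site only.

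VCP, also called p97, is an ATPase that pulls ubiquitin-tagged proteins out of membranes and complexes and hands them to the proteasome or to autophagy. Its adaptors decide which proteins it receives. VCPKMT methylates a single lysine of VCP, and METTL21C, an enzyme enriched in skeletal muscle, has been reported to methylate VCP and alanyl-tRNA synthetase. METTL21A methylates chaperones of the HSP70 family. METTL21E is a paralog of METTL21C that is also found in muscle.

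Library totals ran from 28436205 to 36139462 counts, and 14070 genes had enough counts for a test. Values below are counts per 1000000 (CPM), scaled between libraries by the TMM method, and a gene was called when its Benjamini-Hochberg adjusted p in the edgeR quasi-likelihood test was under 0.05. Fibre type was followed by the log2 ratio of Myh4, the myosin of the fastest fibres, to Myh1, Myh2 and Myh7 added together. It was lowest in control library 4 (0.87) and tumor library 2 (2.03), and 2.95 to 6.51 in the other 6 libraries. Control 4 and tumor 2 had similar Myh1 (13411 and 13645 CPM) but unlike Myh7 (2164 and 4.09 CPM). Keratin genes Krt5, Krt14 and Krt6a and the desmosome gene Dsg3 were at 0 counts in all 8 libraries. Trp63, the fifth squamous marker, was present in control muscle too, at 6.27 to 9.40 CPM. It rose 3.01-fold in tumor mice (adjusted p = 0.00484, edgeR). The muscle fibre markers Acta1, Ckm, Mb, Ttn, Ryr1 and Cacna1s summed to 64272 to 73871 CPM in controls and 39860 to 62298 CPM in tumor mice. Of the 6, Acta1 alone was called lower, against 8.73% of all genes. Ttn and Ryr1 went the other way without a call (log2 fold changes 0.41 and 0.51).

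Promoter sequence from RefSeq (build GRCm38.p6) was at hand for Vcp, Vcpkmt and Mettl21a. The 250 bases before the start of Vcp and of Vcpkmt are shown because these genes encode the substrate and its own enzyme. Capitals mark the letters CCAAT on either strand, a common promoter element bound by NF-Y. The Vcp stretch is chr4:43000508-43000757 and the Vcpkmt stretch chr12:69583018-69583267, both on the minus strand and written 5′ to 3′ toward the gene.
Vcp: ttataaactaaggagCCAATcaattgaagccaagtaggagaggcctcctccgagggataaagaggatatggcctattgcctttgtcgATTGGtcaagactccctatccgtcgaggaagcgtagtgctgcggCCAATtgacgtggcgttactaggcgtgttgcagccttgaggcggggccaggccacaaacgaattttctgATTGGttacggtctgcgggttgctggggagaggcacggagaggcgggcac
Vcpkmt: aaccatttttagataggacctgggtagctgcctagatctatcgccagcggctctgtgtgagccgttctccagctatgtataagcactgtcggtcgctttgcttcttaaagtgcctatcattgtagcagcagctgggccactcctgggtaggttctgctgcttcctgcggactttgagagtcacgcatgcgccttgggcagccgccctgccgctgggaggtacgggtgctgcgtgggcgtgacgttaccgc
The Vcp stretch held 4 copies of CCAAT, and those of Vcpkmt and Mettl21a held 0. At least 1 copy was found in 33.9% and at least 4 copies in 0.840% of 32851 promoter windows of the same length. The letters of the FOXO element GTAAACA and of the core MEF2 element, also searched on both strands, were in none of the 3 stretches, and 3.17% and 3.20% of all windows held them. The E-box CANNTG was found 2 times before Vcp, 2 times before Mettl21a and 1 time before Vcpkmt, and 66.2% of all windows held at least 1. The letters TGACNNNGC were found 1 time before Vcp and 0 times before Mettl21a and Vcpkmt, and 10.2% of all windows held them. A match in these letters is a description and was not tested as a binding site.

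Mettl21c fell 18.2-fold in tumor-bearing mice and was the member that differed most. The controls stood at 80.2, 104.0, 51.4 and 19.1 CPM in libraries 1 to 4, and the tumor mice at 8.46, 1.36, 2.22 and 1.95 CPM. Every tumor value lay below every control value, with control 4 the lowest control and tumor 1 the highest tumor library. Group means were 63.7 ± 36.7 and 3.5 ± 3.33 CPM (SD, n = 4 each), and the log2 fold change was -4.19 ± 0.69 (SE). The fall ranked 10 among the 14070 genes. Without tumor library 1 it was 34.4-fold.

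Mettl21e, the paralog, fell 3.94-fold, on far fewer reads. The 4 controls had 3.86, 2.18, 1.94 and 2.79 CPM, and the 4 tumor mice 1.28, 0.23, 0.58 and 0.63 CPM. These groups did not overlap either, and tumor library 1 was again the highest of its group. The means were 2.69 ± 0.86 and 0.68 ± 0.44 CPM, and the log2 fold change was -1.98 ± 0.47 (SE). In estimated counts the libraries held 66 to 111 in controls and 7 to 39 in tumor mice, so counting error is larger than for Mettl21c. The call was lost without control library 1 (3.37-fold) or tumor library 3 (3.75-fold). A pseudogene on the opposite strand, Gm15833, lies in an intron of Mettl21e and held 5 to 82 counts per library. The annotated exons of the pair had 0 bases in common, and their transcripts shared 0 words of 31 bases on either strand.

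Mettl21a and Vcpkmt did not pass the threshold. Mettl21a, the enzyme of HSP70 chaperones, had 4.42, 6.62, 5.87 and 7.72 CPM in controls and 5.27, 7.73, 5.91 and 13.5 CPM in tumor mice. The groups overlapped, and tumor library 4 alone lay well above the rest. The log2 fold change was 0.40 ± 0.30 (SE), and 0.03 without tumor library 4. Vcpkmt, the VCP-specific enzyme, had 2.12, 2.15, 2.37 and 1.2 CPM in controls and 2.77, 1.66, 1.90 and 2.99 CPM in tumor mice. Tumor libraries lay on both sides of most controls, and the log2 fold change was 0.24 ± 0.30 (SE).

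Vcp itself was abundant in both groups and higher on average in tumor mice, without passing the threshold. The controls had 443, 447, 586 and 484 CPM and the tumor mice 533, 750, 643 and 794 CPM. The groups overlapped only through control library 3 and tumor library 1, since control 3 lay above tumor 1. The means were 490.0 ± 66.8 and 680.0 ± 117 CPM, a log2 fold change of 0.47 ± 0.17 (SE), or 1.39-fold. DESeq2 called this rise, and so did edgeR without tumor library 1 (1.49-fold). The pseudogene Vcp-rs shares 2127 of its 2376 distinct 31-base words with Vcp transcripts, and it took 1.71% to 1.99% of the estimated counts of the pair. With both summed, the log2 fold change was again 0.47.

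**Figure D1:**
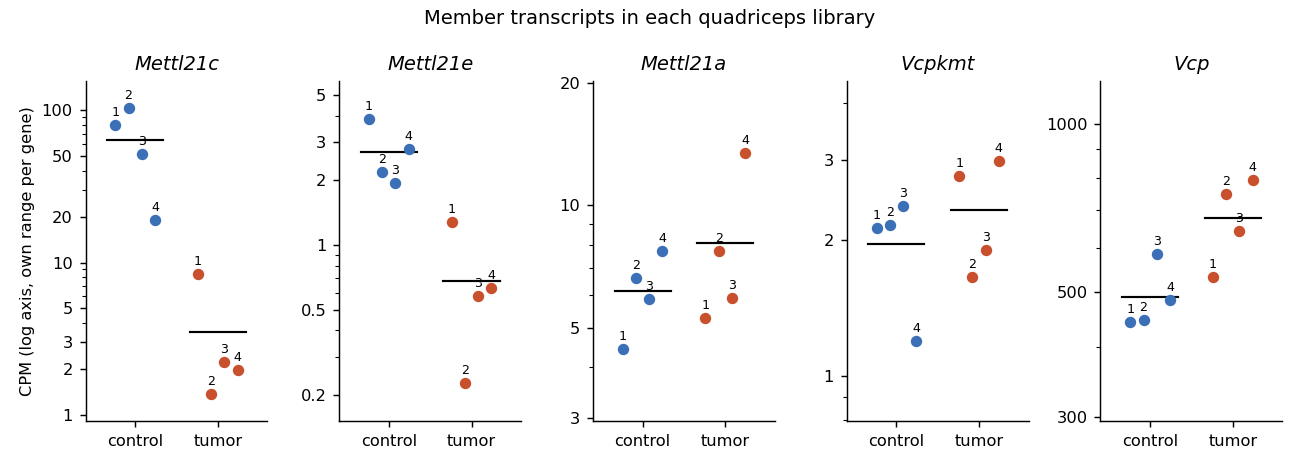
CPM of each of the 5 genes in each library (log axes with a range of their own per gene); points are single mice labelled with their library number, and bars are group means. Mettl21c and Mettl21e show no overlap between the 4 control and the 4 tumor mice, whereas the groups overlap for Mettl21a, Vcpkmt and Vcp.

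In all, 2 of the 5 genes were called, both lower, and the same 2 had groups without overlap. Over all 14070 genes 19.8% were called (8.73% lower and 11.0% higher), and 25.0% had groups without overlap. Of the called genes 55.8% were higher, and with upper-quartile scaling 43.0%. Because Mettl21c was chosen from this contrast, nothing is read from the share of members called.

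The make-up of the family's transcripts differed between the groups, with Mettl21c the leading transcript in controls. Levels were divided by the length of the longest protein-coding transcript to compare genes (CPM per kilobase). On that scale control muscle held 58.6 ± 33.8 for Mettl21c, 2.31 ± 0.52 for Mettl21a, 1.91 ± 0.51 for Vcpkmt and 0.84 ± 0.27 for Mettl21e (SD, n = 4). In tumor mice the per-length levels were 3.22 ± 3.06 for Mettl21c, 3.04 ± 1.40 for Mettl21a, 2.26 ± 0.63 for Vcpkmt and 0.21 ± 0.14 for Mettl21e. Mettl21c was thus the first in order in each control library, by a wide margin on this scale. In tumor libraries 2, 3 and 4 Mettl21a came first, with this length and with the longest transcript of any kind. In tumor library 1 Mettl21c came first with this length and Vcpkmt with the other. Eef1akmt3 (also called Mettl21b), which methylates an elongation factor, was at 0 counts in 6 libraries and at no more than 3 in the other 2.

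As a share of the summed per-length level of these genes, Mettl21c made up 93.7%, 94.8%, 90.2% and 78.1% in controls 1 to 4. In the tumor mice it made up 60.5%, 21.5%, 32.5% and 18%. The share of Mettl21a ranged from 2.10% to 12.9% in controls and from 15.4% to 50.6% in tumor mice, and that of Vcpkmt from 2.07% to 5.17% and from 20.9% to 29.4%. Shares of a sum depend on each other, so these differences largely restate the fall of Mettl21c, known beforehand. Mettl21a and Vcpkmt were not called themselves, and the shares are descriptions. Set against Vcp on the same per-length scale, Mettl21c stood at 39.7% of the Vcp level in controls and at 1.57% in tumor mice. The longest annotated Mettl21c transcript is a retained-intron form of 3482 bases, against 1086 for the protein-coding one. With the longest transcript of any kind for each gene, the mean Mettl21c share was 73.6% in controls and 14.9% in tumor mice. On those lengths Mettl21a (46.9%) and Vcpkmt (34.8%) had the larger mean shares in tumor mice, and Mettl21c lay below Vcpkmt in each of the 4.

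**Figure D2:**
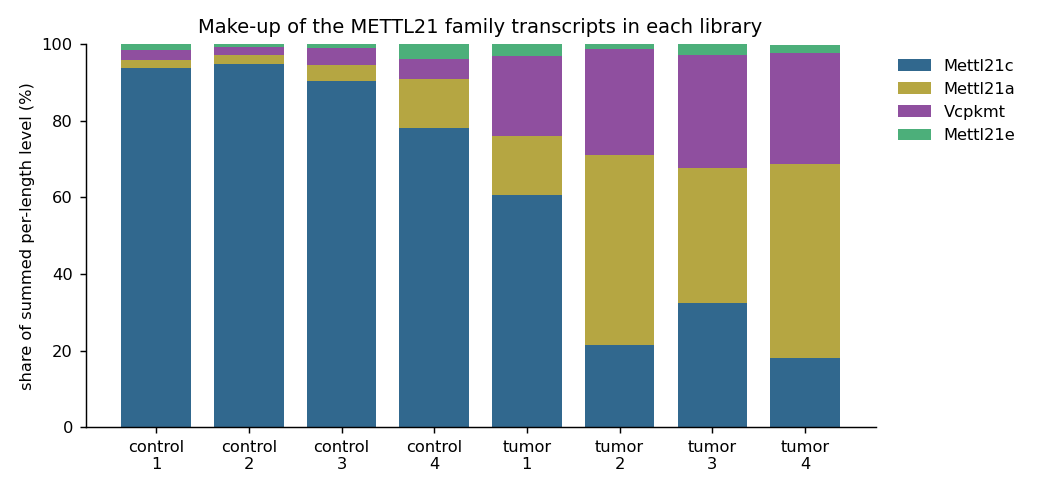
Share of Mettl21c, Mettl21a, Vcpkmt and Mettl21e in their summed per-length level (percent, vertical axis) for each library; bars are single mice. Mettl21c fills 78.1% to 94.8% of each control bar and 18% to 60.5% of each tumor bar.

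Fibre make-up differed between mice of the same group, so the genes were also set beside it. In controls the lowest value (19.1 CPM) was in library 4, where Myh7, the myosin of slow fibres, reached 2164 CPM, and the other controls with Myh7 at 119, 16.4 and 1.48 CPM had 80.2, 104.0 and 51.4 CPM of Mettl21c. Tumor libraries held 0.115 to 4.09 CPM of Myh7. Of 9 slow and oxidative fibre genes 6 were called lower in tumor mice, all with overlapping groups, and 0 of 8 fast fibre genes were called. Over all genes 8.73% were called lower and 19.8% in either direction. Control 4 was the highest library for each of the 9 slow genes. Tnnt1, for example, stood at 685 CPM there and at 51.8, 7.08 and 0.64 CPM in controls 1 to 3. At nearly equal Myh4 ratios, control 2 (4.29) had 104.0 CPM of Mettl21c and tumor 4 (4.32) had 1.95, a ratio of 53.3. Control 3 (5.60) and tumor 3 (6.00) differed 23.2-fold. Control 4 (0.87) and tumor 2 (2.03), less close in ratio, differed 14.0-fold. Other pairs were closer in ratio than this last pair. Control 3 (5.60) and tumor 1 (6.51) had 51.4 and 8.46 CPM of Mettl21c, and 1.94 and 1.28 CPM of Mettl21e. Control 1 (2.95) and tumor 2 had 80.2 and 1.36 CPM of Mettl21c, and 3.86 and 0.23 CPM of Mettl21e. The part of fibre type in the fall was not tested by such pairs. With the Myh4 ratio as a covariate the fall of Mettl21c was 30.6-fold and that of Mettl21e 4.72-fold, and Vcp was not called (1.41-fold). Without control 4 and tumor 2 the log2 fold changes were -4.24 for Mettl21c, -1.69 for Mettl21e and 0.41 for Vcp, and 12 VCP cofactors were called in place of 14. RNA of bulk muscle cannot tell fewer fibres of a type from less RNA per fibre.

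**Figure D3:**
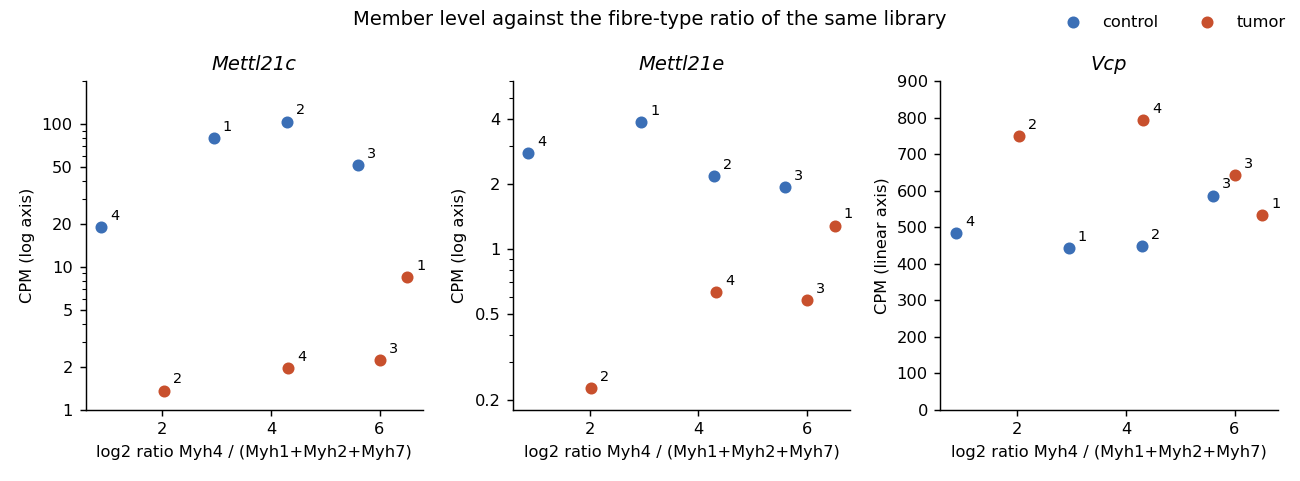
CPM of Mettl21c, Mettl21e (log axes) and Vcp (linear axis) against the log2 ratio of Myh4 to Myh1 + Myh2 + Myh7 of the same library; points are mice labelled by library number. All tumor libraries lie below all controls for Mettl21c and Mettl21e, also at similar ratios, such as control 2 at 104.0 and tumor 4 at 1.95 CPM of Mettl21c.

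Mettl21c and Mettl21e lie near each other on chromosome 1 in the RefSeq annotation (GRCm38.p6, used for gene order only). Between them, 4 tested genes (Tex30, Poglut2, Bivm and the DNA repair gene Ercc5) did not pass, with log2 fold changes from -0.49 to 0.34. Tpp2 lies next to Mettl21c on the outer side and encodes a peptidase that trims peptides after the proteasome. It rose, from 40.6 ± 3.52 to 62.0 ± 9.78 CPM (log2 fold change 0.61 ± 0.14, adjusted p = 0.0148, edgeR). The Tpp2 call was lost without control library 1. The annotated transcripts of Mettl21c and Mettl21e had 0 words of 31 bases in common.

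Libraries were also compared within their groups, after each group had been centred on its own mean, which removes the tumor-control difference. Among 10232 genes of at least moderate level, the 3 whose log2 CPM moved most like Mettl21c over the 8 libraries were Eid2 (r = 0.993), the magnesium transporter gene Slc41a3 (r = 0.987) and Myhas (r = 0.987), an antisense transcript of the fast myosin cluster. Slc41a3 also fell in tumor mice, from 63.9 ± 17.4 to 11.9 ± 5.38 CPM (adjusted p = 0.00348, edgeR), while Eid2 (log2 fold change 0.41) and Myhas (-1.03) did not pass. Without tumor library 1 Myhas was called, at -1.64. For Mettl21e the nearest genes were Sdr39u1 (r = 0.986), Tmem198b (r = 0.974) and Rarg (r = 0.971), a retinoic acid receptor gene. For Vcp they were the proteasome ATPase gene Psmc6 (r = 0.993), the splicing factor gene Srsf2 (r = 0.978) and Slc10a3 (r = 0.972), and these 3 were called higher. The Srsf2 call was lost in 10 of 17 alternatives, and that of Psmc6 without control library 1 or 2. These r values are descriptions of 8 libraries picked as the highest of many and carry no test.

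Cofactors of VCP were called higher in several classes, with Nploc4, Aspscr1, Ubxn4 and Ube4a among those that rose. Of 34 cofactors listed from knowledge of the pathway, 32 were tested, 13 were called higher and 1 lower, and 15 had tumor values all above the controls. Over all genes 11.0% were called higher, and 13.5% had tumor values all above the controls. The median log2 fold change of the 32 was 0.40, against 0.00 over all genes. The list was made with earlier results of these data known, so these counts and the median are descriptions. The same limit holds for the other lists below and for the adjusted p-values of listed genes. Without control library 1 or control library 2 the cofactors called fell to 8, all higher; 1110 and 1373 genes were called in all in those fits.

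The adaptors that bring ubiquitinated proteins to VCP were higher in each tumor mouse than in any control. NPLOC4 and UFD1 form the heterodimer that serves protein degradation, and p47 (Nsfl1c) serves membrane fusion. Nploc4 had 64.3, 62.7, 93.2 and 94.7 CPM in controls and 143, 305, 270 and 317 CPM in tumor mice, a 3.28-fold rise (1.72 ± 0.26 on the log2 scale, adjusted p = 0.00428, edgeR). Nsfl1c rose 1.62-fold, from 65.3 ± 4.80 to 106 ± 21.7 CPM (adjusted p = 0.0145), a call lost without control library 1 or 2. Ufd1 had 31.6 ± 2.62 and 42.2 ± 7.56 CPM, a log2 fold change of 0.42 ± 0.14 that missed the threshold (adjusted p = 0.0609, edgeR). It passed by DESeq2 and with the Myh4 ratio as a covariate.

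Among UBX-domain proteins, which dock on VCP through that domain, 5 of 11 tested rose and 0 fell, against 11.0% and 8.73% of all genes. Aspscr1 (TUG), which disassembles VCP hexamers and holds back the glucose transporter of muscle, rose 2.44-fold, from 19.7 ± 1.49 to 48.2 ± 11.2 CPM (adjusted p = 0.00355). Ubxn4 (erasin), an anchor of VCP at the endoplasmic reticulum, rose 2.27-fold, Faf1 rose 1.75-fold and Ubxn6 rose 1.58-fold. These 4 calls held under each alternative run. The fifth, Ubxn8, rose 2.05-fold. The other 6 ran from -0.10 (Faf2) to 0.68 (Ubxn11) in log2 fold change.

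Partners of VCP at the endoplasmic reticulum, where it extracts misfolded proteins, moved both ways: 3 of 8 tested rose and 1 fell. Over all genes 11.0% were called higher and 8.73% lower. Ngly1, which removes sugar chains from extracted proteins, rose 1.63-fold from 39.3 ± 2.62 to 64.1 ± 9.05 CPM (adjusted p = 0.00671). Selenos, a membrane receptor for VCP, rose 1.48-fold, and the protease gene Rhbdd1 rose 1.41-fold. Svip, a small inhibitor of this route, fell 1.67-fold from 28 ± 1.17 to 16.7 ± 4.61 CPM (adjusted p = 0.0272). The ligase gene Syvn1 did not pass (log2 fold change 0.27). The calls of Selenos, Rhbdd1 and Svip were lost in 8, 10 and 4 of 17 alternatives, among them the ones that left out control 1, control 2, control 3 or tumor 3, and without each of these 4 libraries 1 partner was called (2 without tumor library 2).

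Of 10 ubiquitin-chain and other cofactors 3 rose and 0 fell, against 11.0% and 8.73% of all genes. Ube4a, a ligase that lengthens ubiquitin chains, had 31.6, 38.1, 48.7 and 45.9 CPM in controls and 141, 213, 148 and 59.2 CPM in tumor mice. Tumor library 4 stood close to the controls, and the rise was 3.42-fold (adjusted p = 0.00820). Plaa, a ubiquitin-binding cofactor, rose 1.82-fold (adjusted p = 0.0213), and this call was lost without control library 1 or 2. Ube4b rose 1.49-fold (adjusted p = 0.0494), a call lost in 13 of 17 alternatives. The deubiquitinase genes Vcpip1, Yod1 and Atxn3 did not pass (log2 fold changes from 0.04 to 0.38). Among 5 other ATPases of the VCP class 1 was called, or 20%, against 19.8% of all genes. This was Spata5, which acts in ribosome maturation and rose 1.6-fold (adjusted p = 0.0122, edgeR). Nsf, which drives vesicle fusion, had a log2 fold change of 0.08 ± 0.12.

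**Figure D4:**
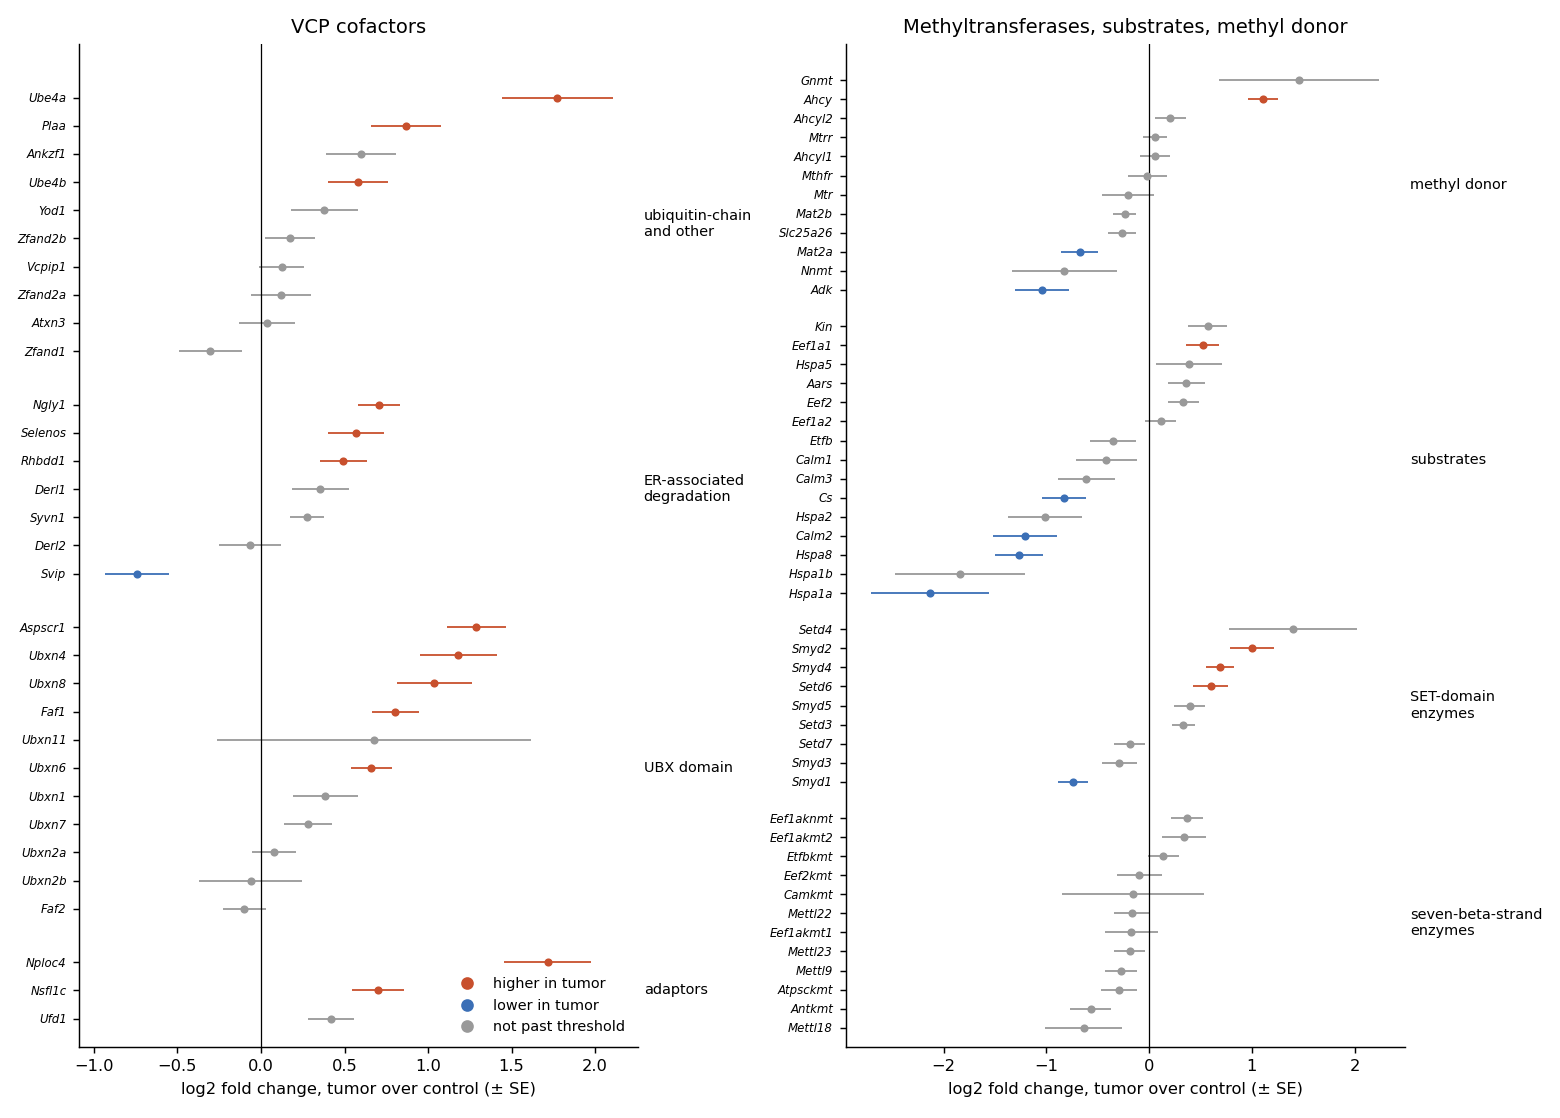
Log2 fold change of tumor over control with its SE (horizontal axis) for tested VCP cofactors (left; 1 uncalled cofactor is not shown) and each tested methyltransferase, substrate and methyl donor gene (right); colour shows whether the gene was called higher, lower or not called. Of the cofactors 13 lie to the right as called and 1 (Svip) to the left. Of 12 related methyltransferases 0 are called, and over all genes 19.8% were called.

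Other methyltransferases with the same class I fold stayed short of the threshold in edgeR. Of 12 tested, which include the enzymes of calmodulin (Camkmt), of elongation factors (Eef2kmt, Eef1akmt1, Eef1akmt2 and Eef1aknmt) and of mitochondrial proteins (Etfbkmt, Atpsckmt and Antkmt), 0 were called by edgeR. DESeq2 called 1, as did edgeR without tumor library 1. Unadjusted p was under 0.05 for 2 of them, and the lowest adjusted p (edgeR) was 0.0686, for Antkmt. Their log2 fold changes ran from -0.64 (Mettl18) to 0.37 (Eef1aknmt), with a median of -0.17. Antkmt lay lower and Eef1aknmt higher in each tumor mouse than in any control. Over all genes 19.8% were called and 25.0% had groups without overlap. The difference of Mettl21c from the 12 genes was not tested.

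Methyltransferases of the SET-domain class, a different fold, changed in part: 3 of 9 rose and 1 fell, against 11.0% and 8.73% of all genes. Smyd1, a muscle enzyme needed for myosin assembly, had 416, 442, 538 and 371 CPM in controls and 292, 246, 248 and 273 CPM in tumor mice. The groups did not overlap, and the fall was 1.67-fold (adjusted p = 0.0102, edgeR). Smyd2, which methylates the chaperone HSP90, rose 2.01-fold from 109 ± 20.9 to 219 ± 61.0 CPM (adjusted p = 0.0129). Smyd4 rose 1.61-fold and Setd6 rose 1.51-fold, and the Setd6 call was lost in 8 of 17 alternatives. The calls of Smyd1, Smyd2 and Smyd4 held under each alternative run.

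Substrates of these enzymes other than Vcp moved in both directions, with 1 of 15 called higher and 4 lower, against 11.0% and 8.73% of all genes. Hspa8, the constitutive HSP70 chaperone that METTL21A methylates, had 1166, 1042, 1091 and 1128 CPM in controls and 387, 719, 353 and 384 CPM in tumor mice. The 4 controls lay close together and tumor library 2 stood above the other 3, and the fall was 2.40-fold (adjusted p = 0.00783). The inducible chaperone gene Hspa1a fell 4.37-fold with overlapping groups (adjusted p = 0.0307), a call lost in 7 of 17 alternatives. The fall was 2.58-fold without control library 1, and 6.69-fold without control 4 and tumor 2. The gene shares sequence with its near-identical copy Hspa1b, which did not pass (log2 fold change -1.84 ± 0.63), so the split between these copies is uncertain. The log2 ratio of Mettl21a to Hspa8 was -7.52 ± 0.38 for controls, against -5.87 ± 0.74 for the tumor group (SD, 4 mice each).

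The citrate synthase gene Cs fell 1.77-fold (adjusted p = 0.0263) and the calmodulin gene Calm2 fell 2.31-fold (adjusted p = 0.0264). Eef1a1, an elongation factor gene, rose from 272 ± 21.3 to 391 ± 78.7 CPM (adjusted p = 0.0473). No substrate was called higher in 10 of 17 alternatives, among them each that left out 1 control, tumor 1 or tumor 3. Its muscle form Eef1a2 had a log2 fold change of 0.11 ± 0.15. Aars, the alanyl-tRNA synthetase gene reported as a METTL21C substrate, had 119 ± 15.6 and 153 ± 38.5 CPM and did not pass (adjusted p = 0.186). Hspa8 was the single substrate called when control 1, control 2 or tumor 3 was left out, and with the replicate number as a block. Substrates called numbered 3 when control 3, control 4 or tumor 1 was left out.

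Genes that supply and clear the methyl donor S-adenosylmethionine were called in 3 of 12 tested, or 25%, against 19.8% of all genes. Ahcy, which clears the by-product that inhibits methyltransferases, had 45.9, 45.3, 52.4 and 43.4 CPM in controls and 76.2, 115, 111 and 102 CPM in tumor mice. Every tumor value lay above every control, and the rise was 2.16-fold (adjusted p = 0.00355), held under each alternative run. Mat2a, which makes the donor, fell 1.6-fold from 111 ± 27.5 to 69.4 ± 5.92 CPM with overlapping groups (adjusted p = 0.0298). Adk, an adenosine kinase gene, fell 2.06-fold (adjusted p = 0.0234). The Mat2a and Adk calls were both lost when control 1, control 2 or tumor 3 was left out.

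Markers of other cells in muscle were compared beside these values. Summed endothelial markers lay at 116 to 185 CPM in controls and 60.3 to 110 CPM in tumor mice (2 of 4 called lower, Kdr and Tie1). Fibro-adipogenic markers lay at 387 to 549 and 164 to 352 CPM (1 of 4 lower, Col3a1). The collagen genes Col1a1 and Col3a1 were lower in each tumor mouse than in any control. Pdgfra and Dcn did not pass (log2 fold changes 0.13 and 0.04). The ranges of myeloid (15.4 to 26.9 and 10.4 to 55.0 CPM), adipocyte (4.17 to 202 and 8.58 to 230.3 CPM) and Schwann cell markers (9.61 to 41.6 and 9.32 to 35.9 CPM) overlapped, with 0 of 13 called. Satellite cell markers summed to 23.0 to 26.1 and 48.5 to 74.3 CPM, through Cdh15 alone, since Pax7 and Myf5 did not pass. Over all genes 19.8% were called, 8.73% lower and 11.0% higher. The part of these cells in the results above was not tested.

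Across the alternatives in scaling, filtering, testing and libraries, Mettl21c kept its direction and call in 17 of 17, with log2 fold changes from -5.10 to -3.84. Mettl21e kept its direction in 17 and its call in 15 of 17 (from -2.47 to -1.69). Vcp lay between 0.38 and 0.57, and Mettl21a (0.03 to 0.56) and Vcpkmt (0.07 to 0.35) were called in none.

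**Figure D5:**
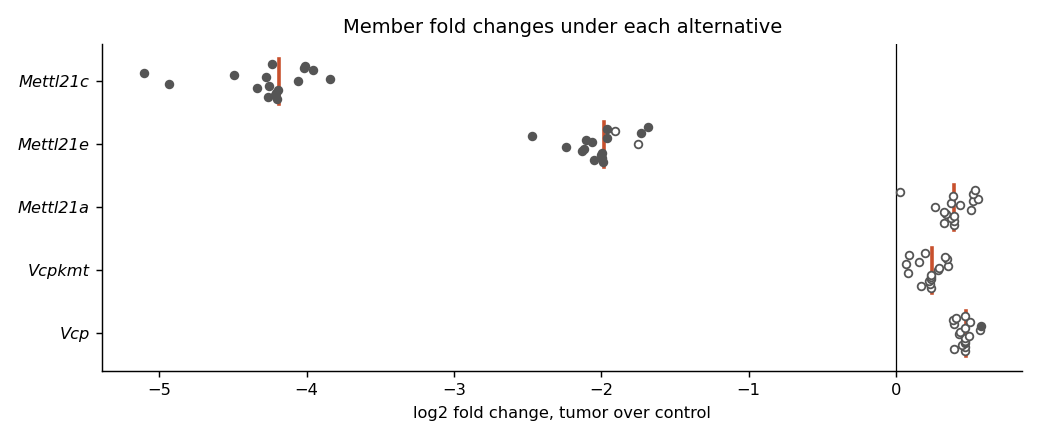
Log2 fold change of tumor over control (horizontal axis) of the 5 genes under each alternative (points, filled where called) beside the reported value (vertical bar). Mettl21c stays between -5.10 and -3.84, while Vcp, Vcpkmt and Mettl21a stay between 0.03 and 0.57.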

How the data were processed

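Quadriceps RNA of 8 mice (4 control, 4 tumor, as labelled) was sequenced as 1 mRNA-seq library each. The authors deposited estimated counts per gene symbol, in which 9% of values were not whole. The submitters' processing notes name the build GRCm39 and the tools Salmon 1.10.1, STAR 2.7.9a, Trim Galore 0.6.7, cutadapt 3.4 and R 4.2.2. Their roles, the annotation and the strand setting were not stated there. Estimated counts divide shared reads by likelihood, so values of copies are less certain.

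Counts were rounded, filtered (filterByExpr, minimum count 10), TMM-scaled and tested two-sided with edgeR 4.0.16 (quasi-likelihood, R 4.3.3), with p adjusted by Benjamini-Hochberg over 14070 genes. SE is the size of the log2 fold change over the square root of F. The biological coefficient of variation was 30.1%. Libraries of a group differed beyond sampling noise. Steps were tested on simulated data. Lengths came from GENCODE M21. Alternatives used DESeq2 1.42.0 and limma 3.58.1, other scalings and filters, left-out libraries, a block and a fibre covariate.

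Members and lists were chosen with earlier results of these data known. Named were the 5 members, up to 4 called genes of smallest p per list, 10 fixed genes, the 3 nearest genes on each side of Mettl21c and Mettl21e, and the 3 most alike genes for Mettl21c, Mettl21e and Vcp. Others named were chosen after their values were seen. The values of 1 cofactor are not reported here.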

Additional observations from a re-analysis of the deposited data

Results flagged for a closer look

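In groups of 4 libraries, 1 library stood far from the other 3 for 9 of 100 gene-group combinations tested by Dixon's criterion, and chance flags about 1 in 20 groups. Tumor library 1 was high for Mettl21c (8.46 CPM against 1.36 to 2.22), and for 2 genes picked for moving like it, Slc41a3 (19.9 against 8.37 to 10.0) and Myhas (34.9 against 9.77 to 12.1). Tumor library 2, low in its Myh4 ratio, was high for Hspa8 (719 against 353 to 387), Aars (210.1 against 127 to 141) and Adk (28.3 against 16.7 to 18). Control library 2 was low for Ubxn6 (60.6 against 66.0 to 67.0), control library 4 was low for Tex30 (0.54 against 1.67 to 1.85) and tumor library 4 was low for Ercc5 (13.1 against 18.4 to 19.2).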

How the results depend on the processing

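Of the 5 genes, Mettl21c, Mettl21a and Vcpkmt kept direction and side of the threshold in all 17 alternatives. With 1 library or a pair left out, Mettl21e ranged from -2.47 to -1.69 (log2) and Vcp from 0.38 to 0.57, and calls over all genes from 1110 to 2922, with 1373 without control 2 and 1190 without tumor 3. Counts of called genes ranged there from 0 to 1 (class I methyltransferases), 1 to 5 (substrates), 1 to 2 (VCP adaptors), 1 to 4 (endoplasmic reticulum partners), 1 to 3 (other VCP cofactors), 1 to 2 (related ATPases), 1 to 4 (methyl donor genes) and 8 to 14 (all VCP cofactors). The neighbours Sos2 of Vcpkmt (-0.12 to 0.031) and Fancg of Vcp (-0.49 to 0.13) were never called and changed sign, Sos2 without tumor 4 and Fancg without tumor 1 or tumor 3. DESeq2 called Vcp (0.47), 1 class I methyltransferase, 9 substrates and 2 related ATPases. Upper-quartile scaling gave 2 endoplasmic reticulum partners, as did no count filter (2), and the Myh4 covariate gave 2 related ATPases. Same-numbered control and tumor libraries correlated between 0.02 and 0.20, and 2 of 4 matched their own number best. Whether the numbers pair mice was not stated, and correlations of 8 libraries cannot show it. With the replicate number as a block, 1932 genes and 1 substrate were called. The longest-transcript share, the summed Vcp and the joint cofactor count were chosen after seeing the data. The cause of these changes was not tested. In tumor libraries Mettl21e rested on 7 to 39 estimated counts.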
